A study of Mus musculus with 4 samples.

Results

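Interferon-inducible GTPases are proteins of cell-autonomous defence, and 6 of their genes are described here in mouse embryonic fibroblasts that lack or carry Xiap. The genes are Gbp2, Gbp2b and Gbp3, which encode guanylate-binding proteins, and Irgm1, Ifi47 and Igtp, which encode immunity-related GTPases. The set was fixed by name, and a probe set was taken where its annotation gave 1 of these symbols and no other. All 6 genes were found, each with 1 probe set, among 8251 genes so represented and 12422 non-control probe sets. RNA was profiled on 4 single-colour Affymetrix U74Av2 arrays, 1 for each of 4 cultures. The cultures were XIAP knockout cells with TNFa, XIAP knockout cells unstimulated, wild-type cells with TNFa and wild-type cells unstimulated. TNFa (tumour necrosis factor, TNF below) was given to confluent cells at 20 ng/ml for 4 hours. Xiap encodes an inhibitor of caspases. The labels say neither whether the cells of a genotype came from 1 embryo or several nor which part of Xiap was deleted, and they name no mouse strain. There was 1 array per culture, so differences between 2 arrays have no test, and the number of arrays limits their precision.

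Guanylate-binding proteins are large GTPases related to the dynamins. They gather on the vacuoles of intracellular bacteria and parasites and on bacteria in the cytosol, where they help to break the pathogen's compartment and to start inflammasome signalling. The immunity-related GTPases work beside them in the mouse. Irgm1 and Igtp (also called Irgm3) are regulators that sit on the cell's own membranes and hold other members inactive there, whereas Ifi47 (also called Irgd) belongs to the effector class. Transcription of both families is best known as a response to interferon-gamma, with IRF1 among its activators, and TNF is known to raise several members as well.

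The genes lie in 3 groups on 2 chromosomes. In the RefSeq gene order Gbp7, Gbp3, Gbp2b and Gbp2 follow each other directly on chromosome 3. Ifi47 lies directly after Tgtp2 on chromosome 11, in a stretch that also holds Irgm1, and Igtp lies directly before Irgm2 elsewhere on chromosome 11. The start regions are shown because most of the genes share a short motif there that is uncommon among all start windows. Each is the RefSeq window of GRCm38.p6, 250 bases before to 50 bases after the annotated start. Capitals mark matches to the IRF element GAAANNGAAA on either strand, the core that interferon regulatory factors bind. The windows are chr3:142620413-142620712 (plus strand) for Gbp2, chr3:142594597-142594896 (plus) for Gbp2b, chr3:142559794-142560093 (plus) for Gbp3, chr11:48871371-48871670 (minus) for Irgm1, chr11:49076337-49076636 (plus) for Ifi47 and chr11:58199306-58199605 (plus) for Igtp.
Gbp2: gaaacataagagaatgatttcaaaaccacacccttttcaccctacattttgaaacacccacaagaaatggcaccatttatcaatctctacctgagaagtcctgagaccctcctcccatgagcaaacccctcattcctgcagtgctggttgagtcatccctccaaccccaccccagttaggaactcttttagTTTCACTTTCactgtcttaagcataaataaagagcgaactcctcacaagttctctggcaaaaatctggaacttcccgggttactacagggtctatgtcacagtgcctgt
Gbp2b: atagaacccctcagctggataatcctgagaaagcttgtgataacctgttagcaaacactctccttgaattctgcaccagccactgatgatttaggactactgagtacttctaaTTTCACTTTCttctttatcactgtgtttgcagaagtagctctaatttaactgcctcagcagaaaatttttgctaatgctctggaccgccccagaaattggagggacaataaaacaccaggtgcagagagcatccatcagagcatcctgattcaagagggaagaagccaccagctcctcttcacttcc
Gbp3: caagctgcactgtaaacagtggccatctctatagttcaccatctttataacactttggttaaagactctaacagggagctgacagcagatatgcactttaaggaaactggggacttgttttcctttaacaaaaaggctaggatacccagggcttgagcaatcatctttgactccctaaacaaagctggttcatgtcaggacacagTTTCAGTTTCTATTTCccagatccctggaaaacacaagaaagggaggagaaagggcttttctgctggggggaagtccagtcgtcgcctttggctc
Irgm1: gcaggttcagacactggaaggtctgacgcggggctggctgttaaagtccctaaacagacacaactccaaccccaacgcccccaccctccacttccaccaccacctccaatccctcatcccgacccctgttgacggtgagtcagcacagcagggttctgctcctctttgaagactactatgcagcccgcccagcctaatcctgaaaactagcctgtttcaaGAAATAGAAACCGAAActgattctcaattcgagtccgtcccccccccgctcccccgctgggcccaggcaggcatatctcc
Ifi47: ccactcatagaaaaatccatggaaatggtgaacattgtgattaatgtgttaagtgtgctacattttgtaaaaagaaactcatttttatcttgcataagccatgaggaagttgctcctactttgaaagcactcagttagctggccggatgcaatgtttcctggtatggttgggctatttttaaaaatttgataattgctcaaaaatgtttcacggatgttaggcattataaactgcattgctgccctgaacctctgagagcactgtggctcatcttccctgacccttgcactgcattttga
Igtp: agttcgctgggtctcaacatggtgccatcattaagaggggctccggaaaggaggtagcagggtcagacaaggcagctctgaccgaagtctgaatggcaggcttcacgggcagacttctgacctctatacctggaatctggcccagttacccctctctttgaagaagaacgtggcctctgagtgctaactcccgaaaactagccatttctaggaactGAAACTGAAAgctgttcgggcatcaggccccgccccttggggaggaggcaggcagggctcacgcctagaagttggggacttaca

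The IRF element was present in 5 of the 6 genes' windows shown, against 3.44% of 32851 windows of the same length in the table. Gbp3 and Irgm1 each had 2 overlapping matches and Gbp2, Gbp2b and Igtp 1 each. The matches began 59 bases before the start in Gbp2, 45 and 39 in Gbp3, 34 in Igtp, and 30 and 24 in Irgm1, but 137 bases before it in Gbp2b. The window of Ifi47 and a second annotated start window of Gbp3 held none of the letters. The GAS motif TTCNNNGAA, named for gamma-activated sequences, was found only in Igtp among these 6 genes (8.30% of all windows), 45 bases before the start. The kB motif, bound by NF-kB and searched on both strands, was found only in Gbp2, just past its start (8.46% of all windows). A match is a description of the letters and not a bound site.

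Signals are MAS5 probe set values on a linear scale, already scaled to a common level by the authors. Signals under 92.5, the 40th percentile of all non-control signals, were treated as below a floor and raised to it before log2 was taken. Where 1 of the 2 arrays lay below the floor, the fold change is a bound (at least N-fold), and a gene below it on both arrays has no fold change. Between 57.3% and 61.8% of non-control probe sets were above the floor on each array. Of 10 fibroblast markers, 9 or 10 were above it on each array. Vim, which encodes vimentin, was near or below it throughout, at 42.1 to 94.5. Of 11 leukocyte markers 3 or 4 were above it, with summed signals of 3158 and 3057 on the TNF and unstimulated knockout arrays and of 1999 and 2760 on the corresponding wild-type arrays. Those above it on every array were Cd14 (1534 to 2402), Csf1r (114 to 373) and Cd68 (113 to 145). The defining leukocyte gene Ptprc stayed between 4.5 and 9.2 and the macrophage gene Adgre1 between 12.2 and 22.0. Among the fibroblast markers Thy1 was lower in knockout cells, at 219 with TNF and 308.5 without, against 1384 and 1120 in wild-type cells. S100a4 was higher there, at 4144 and 4106 against 1226 and 1351. Of 5 epithelial markers 1, Cdh1, was above the floor on each array, at 297 to 530.5. Of 5 endothelial markers 0 were above it on either TNF array. Without TNF, 1 was in knockout cells (Kdr, 126) and 2 in wild-type cells (Kdr, 189, and Pecam1, 104). The part of these differences and of other cell types in the results was not tested. The brightest Xiap probe set read 120 and 180.5 on the TNF and unstimulated knockout arrays and 126 and 239 on the wild-type ones. Without knowing the deleted part, it does not check the genotype. In RNA from whole cultures, fewer cells expressing a gene and less RNA per cell cannot be told apart.

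In both genotypes Gbp2, Gbp3, Ifi47 and Igtp had higher signals with TNF than without, while Gbp2b did so only on the knockout arrays and Irgm1 mostly on the wild-type ones. Of the 6 probe sets measured in knockout cells 5 were at least 2-fold higher with TNF, where 1.57% of 7764 measured probe sets were. In wild-type cells all 5 measured ones were, where 2.54% of 7846 were. Gbp2b, at 2.4 with TNF and 5.6 without, stayed under the floor in wild-type cells and so was not counted there. In knockout cells all 5 that passed had unstimulated signals under the floor, 13.3 to 82.5. In wild-type cells Gbp2 (68.5) and Ifi47 (63.1) did. Such genes were measured only because the TNF array was above the floor, and ones that stayed under it could not enter the counts. The shares over all probe sets and the gene list counts below follow the same rule. The median log2 change of the members was 3.30 in knockout and 3.21 in wild-type cells, beside -0.05 and -0.10 over all measured probe sets. These 2 member medians cover unlike sets, 6 probe sets in knockout and 5, without Gbp2b, in wild-type cells. With no floor they were 4.12 and 3.21, so they do not show an equal response. These genes were singled out with the TNF response of these arrays known, so their high counts are a description.

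Gbp2 gave signals of 1720 with TNF and 13.3 without in knockout cells, and of 2626 with TNF and 68.5 without in wild-type cells. Both TNF arrays were far above both unstimulated ones, which lay below the floor. Gbp2 was thus at least 18.6-fold higher with TNF in knockout and at least 28.4-fold higher in wild-type cells. On floored values it ranked 4th from the top of the measured probe sets in knockout cells and 2nd in wild-type cells.

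Gbp3 read 1720 with TNF and 62.0 without in knockout cells, against 1430 and 154 in wild-type cells in the same order. It was at least 18.6-fold higher with TNF in knockout and 9.26-fold higher in wild-type cells. The levels with TNF were close, and the unstimulated knockout array was the lowest of the 4.

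Gbp2b had a signal of 918 on the TNF-treated knockout array and of 21.7 on the unstimulated knockout array. On the wild-type arrays it read 2.4 with TNF and 5.6 without, both below the floor. Only the TNF-treated knockout culture thus had a signal above the floor. With TNF it was at least 9.93-fold higher than without in knockout cells, 10th from the top on floored values.

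The guanylate-binding protein genes are close relatives and their probe sets may share hybridisation. All 6 probe sets carry the plain suffix that the array's makers gave to sets designed for 1 transcript, but the probe sequences were not used here. On the TNF-treated wild-type array the Gbp2 and Gbp3 probe sets gave 2626 and 1430 while that of Gbp2b read 2.4. The Gbp2b probe set thus stayed at the bottom of the range on an array where both relatives were bright. Whether Gbp2b transcript added to the Gbp2 or Gbp3 signals in knockout cells was not tested.

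**Figure D1:**
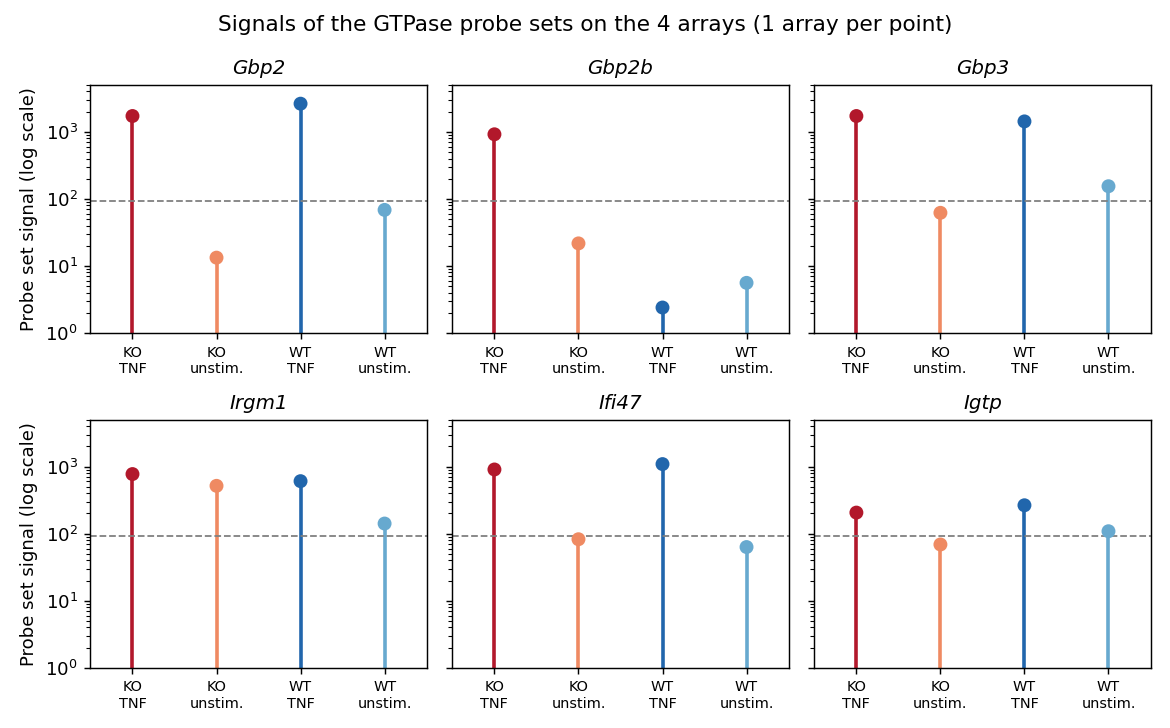
Probe set signals (vertical axis, log scale) of the 6 GTPase genes on the 4 arrays, 1 point per array, from left the TNF-treated and unstimulated Xiap knockout (KO) and the TNF-treated and unstimulated wild-type (WT) cultures; the dashed line is the floor of 92.5. Gbp2b stands above the floor only on the TNF-treated knockout array, and Irgm1 is above it on all 4.

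Ifi47 read 904.5 with TNF and 82.5 without in knockout cells, and 1089 with TNF and 63.1 without in wild-type cells. Both TNF arrays stood far above the unstimulated ones, which lay below the floor. It was at least 9.78-fold higher with TNF in knockout and at least 11.8-fold higher in wild-type cells, 11th and 12th from the top.

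Igtp changed least of the genes that passed 2-fold in both genotypes. Its signals were 206 with TNF and 68.9 without in knockout cells, and 265 with TNF and 109 without in wild-type cells. It was at least 2.23-fold higher with TNF in knockout and 2.44-fold higher in wild-type cells. On the floored scale 98.7% of measured probe sets in knockout and 98.2% in wild-type cells changed by less or fell.

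Irgm1 was the one gene above the floor on all 4 arrays. Its signals were 773 with TNF and 516 without in knockout cells, and 606 with TNF and 141 without in wild-type cells. The unstimulated knockout array thus lay near the TNF-treated ones, and the unstimulated wild-type array stood apart below. The change with TNF was 1.50-fold in knockout and 4.28-fold in wild-type cells. The knockout value misses the 2-fold mark that all the other genes passed in that genotype.

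**Figure D2:**
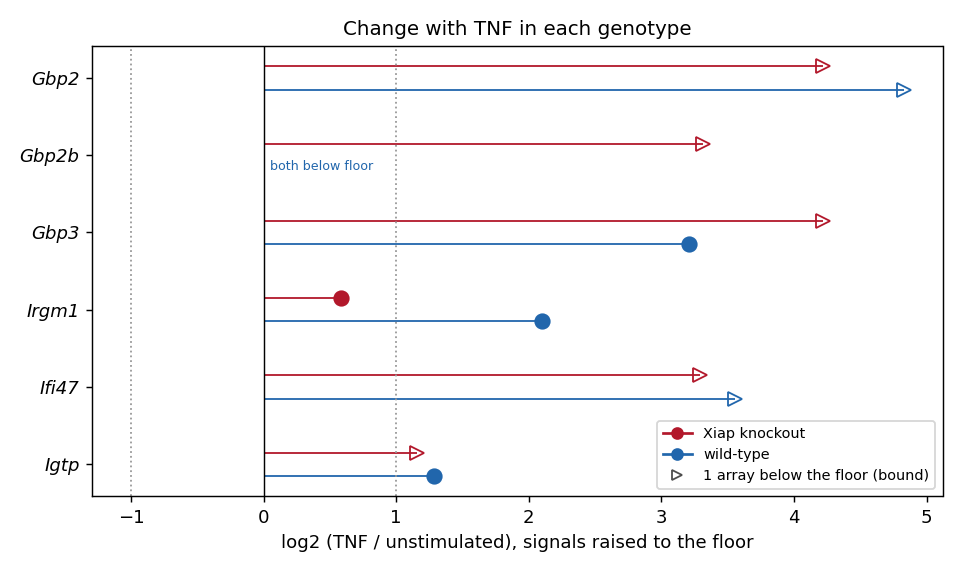
Change with TNF as log2 of the TNF-treated over the unstimulated floored signal (horizontal axis) for each gene, with the Xiap knockout above the wild-type value; open triangles are lower bounds and dotted lines mark 2-fold. Irgm1 lies under 2-fold in the knockout (0.58) and at 2.10 in wild-type cells, and Gbp2b has no wild-type value.

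**Figure D3:**
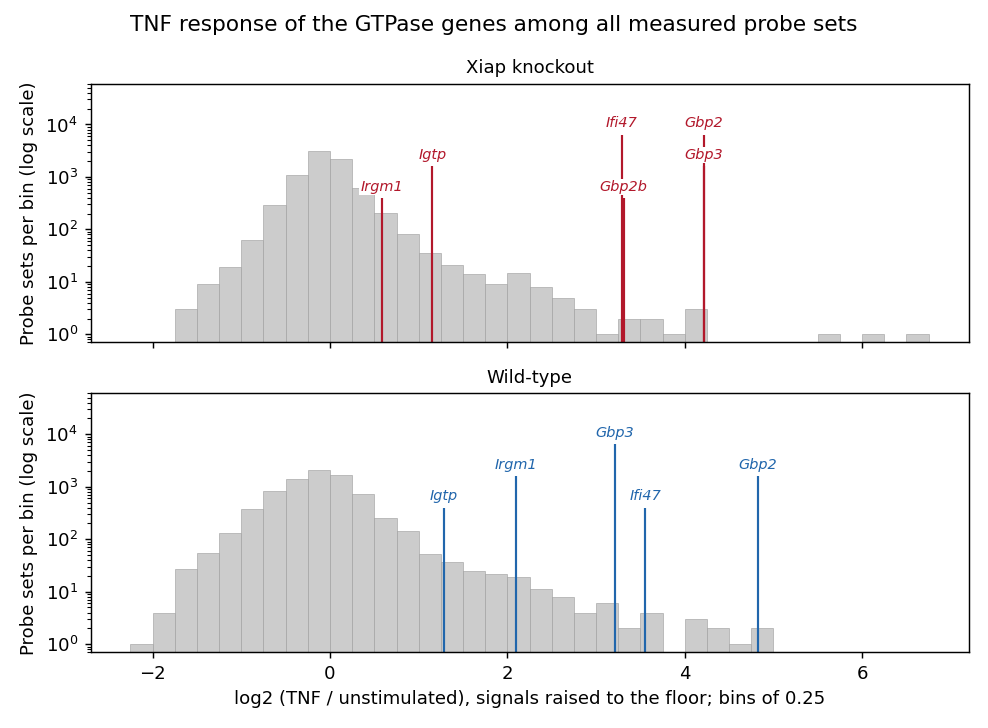
Histograms of the log2 change with TNF over 7764 measured probe sets in Xiap knockout (top) and 7846 in wild-type cells (bottom), with the number of probe sets per bin on a log scale and the GTPase genes marked by vertical lines. Gbp2, Gbp3 and Ifi47 stand in the far right tail of both, Igtp at 1.15 and 1.29, and Irgm1 at 0.58 in the knockout.

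A model with genotype and TNF as additive terms was fitted over the 4 arrays with limma, which leaves 1 residual degree of freedom per probe set and shares the spread between probe sets. Its p-values have no replicate cultures behind them and take a difference of response between the genotypes as error. With TNF, 3 of the 6 GTPase probe sets were higher at an adjusted p under 0.05 over 8228 probe sets, where 1.08% of all were. Gbp2 rose by 4.52 on the floored log2 scale (SE 0.22, limma adjusted p = 0.00118), higher in both pairs of arrays. Gbp3 rose by 3.71 (SE 0.27, limma adjusted p = 0.00293) and Ifi47 by 3.42 (SE 0.22, limma adjusted p = 0.00226), again in both pairs. Igtp had an effect of 1.22 (SE 0.20), and its limma adjusted p of 0.0552 missed the threshold, although both pairs showed the direction. Whether Igtp was called depended on the setting, as given at the end. Irgm1 (effect 1.34, SE 0.35, limma adjusted p = 0.183) and Gbp2b (1.66, SE 0.69, limma adjusted p = 0.365) were not called either. Their SEs were the widest of the 6, since their responses differed most between the genotypes. When probe sets below the floor on every array were kept in the fit, none of 12422 was called and 4 GTPase probe sets had an unadjusted p under 0.05. With equal medians of the arrays all 6 were called.

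Between the genotypes, the TNF-treated cultures lay within 2-fold of each other for 5 genes and differed by more for Gbp2b. Under TNF, 1 of 6 probe sets was higher by 2-fold or more in knockout cells, where 5.83% of 7754 were, and 0 were at least 2-fold lower, where 4.97% were. The higher one was Gbp2b, at 918 in knockout against 2.4 in wild-type cells, at least 9.93-fold and 25th from the top. With 1 culture of each kind and no strain named, Xiap loss cannot be told apart here from any other difference between the cultures, strain included. The log2 ratios of knockout to wild-type were -0.61 for Gbp2, 0.27 for Gbp3, 0.35 for Irgm1, -0.27 for Ifi47 and -0.36 for Igtp. These 5 lay within 2-fold and on both sides of 0. The sources give no replicate spread against which such ratios could be read.

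Without TNF only Gbp3, Irgm1 and Igtp were measured. Irgm1 was 3.65-fold higher in knockout cells, at 516 against 141 in wild-type cells, and 98.8% of 8060 measured probe sets had a lower ratio. It was the 1 of 3 at least 2-fold higher, where 4.53% of all were, and 0 were 2-fold lower, where 4.58% were. Gbp3 was at least 1.67-fold and Igtp at least 1.17-fold lower in knockout cells, both with the knockout array below the floor. A floor at the 20th percentile, 20.5, left 2 genes at least 2-fold lower, Gbp2 and Gbp3.

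In the additive limma fit none of the 6 was called for genotype, where 10.2% of 8228 probe sets were called higher and 9.19% lower in knockout cells. Irgm1 was the 1 with an unadjusted p under 0.05 (effect 1.11, SE 0.35, limma adjusted p = 0.0753), higher in knockout in both pairs. Genotype in this fit cannot be told apart from any other difference between the cultures. With other settings up to 3 were called, as given at the end.

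**Figure D4:**
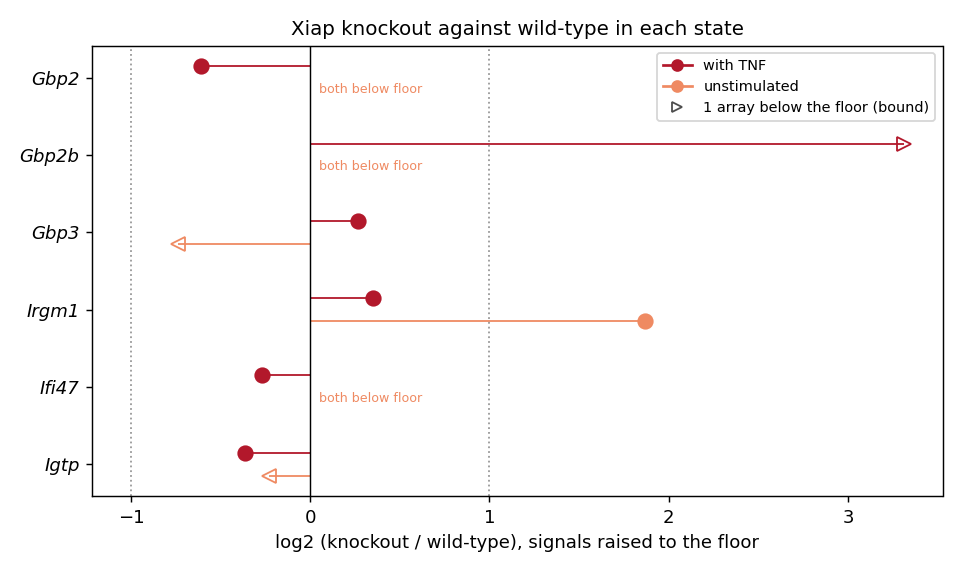
Xiap knockout against wild-type as log2 of the ratio of floored signals (horizontal axis) for each gene, with the TNF-treated pair above the unstimulated pair; open triangles are bounds and dotted lines mark 2-fold. Gbp2b under TNF (at least 3.31) and unstimulated Irgm1 (1.87) are the values past 2-fold.

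The difference of response, the log2 change with TNF in knockout minus that in wild-type cells, cannot be tested with 4 arrays. On floored values the response of 2 of the 6 was larger by 2-fold or more in knockout cells, where 2.69% of 8228 probe sets did, and 1 a smaller one, where 1.23% did. Gbp2b had the largest floored difference of all 8228 probe sets (3.31), with both wild-type signals below the floor. For Gbp3 the difference was at least 1.01, since its unstimulated knockout signal was below the floor and its wild-type signals were not. It was under 1 with a floor at the 60th percentile (0.27), quantile normalization (0.94), equal medians (0.72) and a pseudocount of 100 (0.90), and 1.58 with a floor at the 20th percentile or none. Irgm1 was the smaller one, at -1.52 with all 4 signals above the floor, and only 0.523% of probe sets had a lower value. Gbp2 (-0.61), Ifi47 (-0.27) and Igtp (-0.13) had small floored differences whose true size the floor hides. Without a floor the difference was 1.75 for Gbp2, -0.65 for Ifi47 and 0.29 for Igtp, so the sign turned for Gbp2 and Igtp.

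Other interferon-inducible GTPase genes were represented by 5 of 15 listed genes, of which 3 were measured. At least 2-fold higher with TNF were 1 of 3 in knockout and 3 of 3 in wild-type cells. With 1 probe set per gene, the share of genes past this mark was 1.47% of 5865 in knockout and 2.62% of 5908 in wild-type cells. In knockout and wild-type cells the list's medians were 0.54 and 1.94. Gbp7, the neighbour of Gbp3, read 498 with TNF and 89.0 without in knockout cells, and 488.5 and 50.4 in wild-type cells. It was at least 5.38-fold and at least 5.28-fold higher with TNF (limma adjusted p = 0.00572). Irgm2, the neighbour of Igtp, was 1.46-fold higher with TNF in knockout (236 against 162) and 2.24-fold in wild-type cells (583.5 against 260). Iigp1, an effector of the same family, was at least 1.45-fold and at least 3.84-fold higher. Irgm2 and Iigp1 were 2.48-fold and 2.65-fold lower in knockout than in wild-type cells under TNF, whereas Irgm1 and Igtp lay within 2-fold. Mx1 and Mx2, antiviral dynamin-like genes annotated as pseudogenes in this reference strain, were below the floor on all arrays. The start windows of Gbp7 and Irgm2 both held the IRF element and a GAS motif.

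Of 4 measured genes for dynamin-family GTPases outside the interferon-inducible group, 0 were 2-fold higher in either genotype (medians -0.02 in knockout and -0.11 in wild-type cells). Of 14 genes for the autophagy conjugation machinery, which helps to place these GTPases on vacuoles, and for prenylation, which anchors some of them in membranes, 0 were 2-fold higher (medians 0.08 and -0.10). Over all genes 1.47% in knockout and 2.62% in wild-type cells were, so counts of 0 in lists this short are near that share. In the additive fit 1 of the 14 was called higher with TNF, where 1.08% of 8228 probe sets were.

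Upstream genes were examined from a list of JAK, STAT, IRF and SOCS genes, of which 1 of 12 was at least 2-fold higher with TNF in knockout and 4 of 12 in wild-type cells. Irf1, which encodes an activator of GTPase promoters, had 2748 with TNF and 302 without in knockout cells, and 2566 and 482 in wild-type cells. Its changes were 9.10-fold and 5.32-fold (limma adjusted p = 0.00242). The kinase gene Jak2 (1.58-fold in knockout, 4.60-fold in wild-type cells) and the feedback genes Socs1 (1.95-fold, 2.81-fold) and Socs3 (1.10-fold, 2.65-fold) passed in wild-type cells alone. The difference was not tested.

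Probe sets of the interferon genes themselves were below the floor or up to 244. Ifnb1 read 60.9 with TNF and 52.6 without in knockout cells and 30.7 and 10.7 in wild-type cells, and Ifng read 1.3 to 4.3, all below the floor. The probe set annotated to Ifna5, by contrast, was above it on all 4 arrays, at 136.5 to 244. It does not carry the plain suffix of the GTPase probe sets, and whether it also reads other interferon genes was not tested. Of 8 measured interferon and receptor genes 1 was at least 2-fold higher in each genotype, the receptor gene Ifnar2 (3.23-fold in knockout, 5.68-fold in wild-type cells). Among interferon-stimulated genes other than GTPases, 6 of 22 in knockout and 12 of 23 in wild-type cells were at least 2-fold higher (medians 0.64 and 1.06). Psmb8 and Psmb10, which encode immunoproteasome subunits, were 6.36-fold and 5.12-fold higher in knockout and 3.33-fold and 3.57-fold higher in wild-type cells. The chemokine gene Cxcl10 was at least 2.54-fold higher with TNF in knockout and at least 19.6-fold in wild-type cells, with signals under TNF of 235 and 1810.5. Ifit1, an antiviral RNA-binding protein gene, was at least 2.51-fold and 13.1-fold higher, with 232 and 2230 under TNF. Ifit3 had a lower bound of 1.33-fold in knockout cells, from signals of 123 with TNF and 55.2 without. Its wild-type signals were 1461 and 268, a 5.46-fold change. Rsad2 was below the floor on both knockout arrays, at 10.0 and 8.0. On the wild-type arrays Rsad2 read 545 with TNF and 9.3 without, a change of 5.90-fold or more. Under TNF 2 of 24 measured genes of the list were at least 2-fold higher and 8 of 24 at least 2-fold lower in knockout cells. Over all 5849 measured genes these shares were 5.62% and 5.01%. Of 11 NF-kB feedback genes on the array 9 were measured in each genotype, and all 9 passed in both (medians 2.12 and 2.22). No gene of the lists described here was 2-fold lower with TNF in either genotype. Over all measured genes few were, 0.409% in knockout and 2.61% in wild-type cells.

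The genes most like the GTPases over the 4 arrays were sought by Euclidean distance between floored log2 signals, each centred on its mean, and the mean profile of the 6 members. Among 6165 other genes the nearest were Nfkbia (distance 0.19), Gbp7 (0.39), Nfkbie (0.53), Tnfaip3 (0.56), Irf1 (0.65) and Icam1 (0.77). Nfkbia and Nfkbie encode inhibitors of NF-kB, Tnfaip3 a ubiquitin-editing brake on TNF signalling, and Icam1 a leukocyte adhesion protein. The members lay 0.93 (Ifi47), 1.25 (Gbp3), 1.56 (Igtp), 1.78 (Irgm1), 2.02 (Gbp2) and 2.26 (Gbp2b) from their own mean. None of the 6 was as near to it as these genes, which were picked as the nearest of 6165. By this distance the members ranked from 15th (Ifi47) to 277th (Gbp2b) among 6171 genes. Among these 6 nearest genes Gbp7 alone had the IRF element in a start window. The kB motif was found in a window of Nfkbia, Nfkbie, Tnfaip3 and Irf1, and the GAS motif in a window of Gbp7, Irf1 and Icam1.

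**Figure D5:**
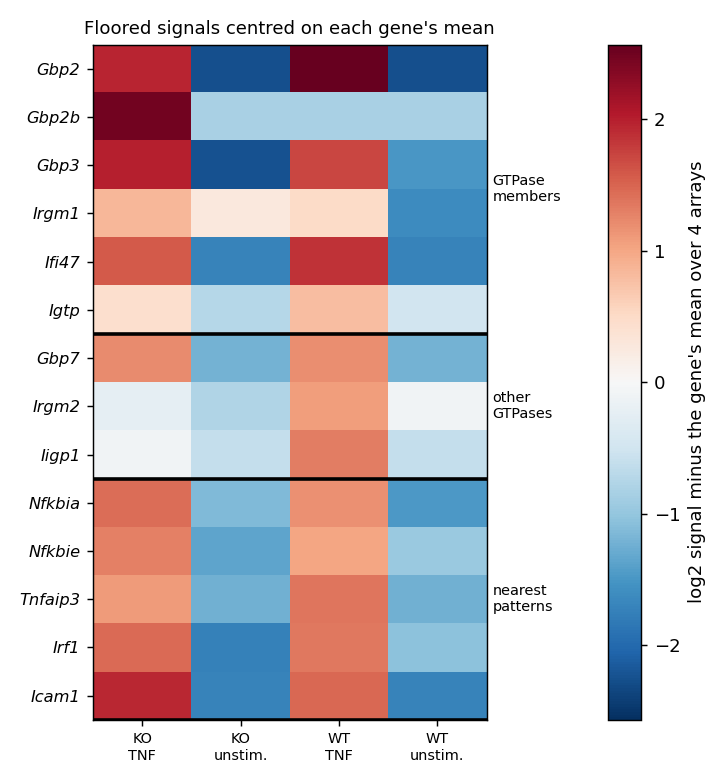
Heat map of floored log2 signals, each gene centred on its mean over the 4 arrays (columns, from left KO TNF, KO unstimulated, WT TNF, WT unstimulated); rows are the 6 GTPase genes, 3 other measured interferon-inducible GTPase genes and the nearest other genes by pattern. Both TNF columns are above the mean for Gbp2, Gbp3, Ifi47 and Igtp, Gbp2b is high in KO TNF alone, and Irgm1 is low in WT unstimulated alone.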

How the data were processed

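RNA of 4 cultures was measured on 4 arrays, grouped by title. The authors deposited 1 intensity per probe set, computed by MAS5 according to the submitters' processing notes. The notes used here give no version or settings, and detection calls were not used. The 4 columns share a trimmed mean of 500.3 (2% left out at each end), so the authors had scaled them before they deposited them, and rescaling changed nothing (factor 1.0).

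Probe sets were named by the platform's annotation, with symbols updated through RefSeq by Entrez identifier; 10833 of 12488 had 1 symbol, 396 had several and were left unnamed. The 66 control probe sets were left out. The array files name no genome build, and RefSeq coordinates are given for the start windows alone. A probe set was measured when at least 1 array compared was above the floor (92.5), which held for 8228 over all arrays. The fit used limma 3.58.1 in R 4.3.3 (lmFit, then eBayes with trend by mean intensity). Its 2-sided p-values were adjusted by Benjamini-Hochberg over 8228 probe sets, and the prior degrees of freedom were 5.37. It was also run on simulated data with independent normal errors drawn from its own fitted spread. Those data had no floor, no genotype effect and no difference of response, so the run does not show how the fit behaves with them.

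All member probe sets were described, with at most 6 genes of each list past 2-fold, the 6 nearest patterns and Xiap; Ifna5, Ifnb1, Ifng, Mx1, Mx2 and single markers were added after their values were seen. For lists, each gene was taken by its brightest probe set. The members and lists were chosen with earlier results of these data known. Alternatives were a pseudocount of 100, no floor, floors at the 20th or 60th percentile, array medians made equal, quantile normalization, and for the fit no intensity trend, no filter and 1 probe set per gene. Intervals for counts do not apply to arrays.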

Additional observations from a re-analysis of the deposited data

Results flagged for a closer look

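A probe set annotated to 2 interferon-inducible GTPase symbols was outside the comparisons and is left unnamed. Its signals were 704.5 with TNF and 166 without in knockout cells, and 675 with TNF and 8.5 without in wild-type cells. It was 4.25-fold higher with TNF in knockout and at least 7.30-fold higher in wild-type cells on floored values, both above the unstimulated level. The unstimulated knockout array was above the floor and the unstimulated wild-type array below it. Another probe set annotated to 2 such symbols was below the floor on all 4 arrays, at 36.1 to 86.7. No group held the 4 samples needed to look for a sample far from the others.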

How the results depend on the processing

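The counts of GTPase probe sets at least 2-fold higher with TNF were 4 or 5 in each genotype under the 6 alternatives tried for them, against 5 in the main setting. Where the count was 4, Igtp was the gene lost. With a floor at the 60th percentile Igtp was not measured. With a pseudocount of 100 it was 1.81-fold higher in knockout and 1.75-fold higher in wild-type cells. Without TNF, the count at least 2-fold lower in the knockout moved from 0 to 2 with a floor at the 20th percentile and to 1 with no floor, and the count higher moved from 1 to 0 with a floor at the 60th percentile. That higher floor also removed the smaller response (from 1 to 0), since it raised the unstimulated wild-type signal of Irgm1. The count with a larger response fell from 2 to 1 with quantile normalization, equal medians, a floor at the 60th percentile and a pseudocount of 100, and became 3 with a floor at the 20th percentile or none, where Gbp2 passed. The 3 calls for TNF became 4 with quantile normalization and 4 with 1 probe set per gene, where Igtp was added. They became 6 with equal medians and 5 with a pseudocount of 100, Igtp again among them, and 0 with no filter. Without the filter, probe sets at the floor on every array have no spread, and the prior degrees of freedom fell to 0.861. With equal medians the prior degrees of freedom were infinite, so probe sets of like intensity shared 1 spread. The 0 calls for genotype became 1 with quantile normalization, 2 with equal medians, 2 with no floor and 3 with a pseudocount of 100. Over the whole table the 89 calls higher with TNF became 161 (quantile), 389 (equal medians), 190 (pseudocount), 136 (no floor), 15 (no intensity trend) and 0 (no filter). Equal medians also moved the median change of all probe sets with TNF in wild-type cells to 0.16, against -0.10. The counts there became 367 higher and 97 lower, against 199 and 219. The cause of these moves other than those stated was not tested. No single-gene value past 2-fold in the main setting changed sign, but the difference of response of Gbp2 (-0.61 there) was 1.13 with a floor at the 20th percentile and 1.75 with none. Without 1 array the additive fit has no residual degree of freedom, so leaving out arrays was not possible. No paired analysis was possible because each group holds 1 array. Bright signals are the most secure, while Gbp2b in wild-type cells and 5 of the 6 genes in unstimulated knockout cells were below the floor.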
